A study of Mus musculus with 9 samples.

Results

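The genes described here are 40 genes of the germ line: regulators of germ cell identity, the piRNA pathway, the meiotic chromosome machinery and a few testis genes. They were taken by name, with no threshold on a measured value, and all 40 were among the 33233 genes of the count files. Earlier results of these data were known when this list and the further lists below were chosen, so their shares are descriptions and not an independent test. RNA was sequenced from mouse embryonic stem cells of the KH2 line, grown with Lif on feeder cells that were taken off before extraction. PolyA+ RNA was made into strand-specific libraries in 3 groups of 3 replicates, namely wild type, CBFA2T2 knockout and PRDM14 knockout, and the labels name no other allele or agent. CBFA2T2 (also called MTGR1) is a co-repressor that binds no DNA of its own, and PRDM14, a DNA-binding partner of it, acts in pluripotent stem cells and primordial germ cells. The labels do not say whether replicates were separate clones or separate cultures, so p-values measure the spread between these libraries, which may be technical.

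Germ cells share a program of genes that embryonic stem cells keep mostly silent or low. PIWI proteins such as PIWIL2 (MILI) and PIWIL4 (MIWI2) bind piRNAs, small RNAs that silence transposons, and Tudor-domain proteins hold the PIWI complexes together in germ granules. At meiosis, cohesins and axis proteins organise the chromosomes, SPO11 and DMC1 act in recombination, and the synaptonemal complex joins the homologues. Many of these genes have CpG-rich promoters that DNMT3A and DNMT3B methylate in the early embryo, and a Polycomb-type complex with E2F6, MGA and MAX represses many of them in embryonic stem cells. DNA methylation itself was not measured in these libraries.

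Library totals ran from 10309196 to 20129490 counts. Levels are given as CPM, counts per 1000000 counts of the library after TMM scaling, so 1 CPM stands for about 10 to 20 counts. A gene was called when its edgeR quasi-likelihood p, adjusted over all 16532 genes tested, was under 0.05. Where 3 values are given for a group they are replicates 1 to 3 in order, and a value with ± is a log2 fold change and its standard error, against wild type unless another group is named. Under its own knockout label, RNA was lower for Cbfa2t2, though still present, and higher for Prdm14. By itself neither level shows whether a label is right or wrong. Cbfa2t2 was at 166, 159.6 and 177 CPM in wild type, 99.2, 44.9 and 84.8 CPM in the CBFA2T2 knockout and 173, 158 and 146 CPM in the PRDM14-labelled libraries. Prdm14 was at 18.4, 14.6 and 15 CPM in wild type, 55, 56.3 and 67.6 CPM in the CBFA2T2 knockout and 41.4, 42.2 and 63.5 CPM in the PRDM14-labelled libraries, so its RNA was above wild type in the libraries labelled PRDM14 knockout. A count over the whole gene cannot tell whether an exon is missing, and groups are named by their labels here.

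More of the germline genes were called lower than higher in the CBFA2T2 knockout, while the calls in the PRDM14-labelled group went both ways at shares near those of all genes. The RNA of the de novo DNA methyltransferases was lower in both. In the CBFA2T2 knockout 15 of the 34 members that passed the filter on low counts fell and 3 rose, where 19.6% of all genes tested fell and 18.9% rose. The members that fell were thus 44.1% of those tested and the members that rose 8.82%. In the PRDM14-labelled group 7 members fell and 5 rose, 20.6% and 14.7% of the 34, where 15.3% of all genes fell and 14.6% rose. The median log2 fold change of the tested members was -0.42 in the CBFA2T2 knockout and -0.21 in the PRDM14-labelled group, while that of all genes was 0.01 and 0.02. Without wild-type replicate 2, 13 members fell and 2 rose in the CBFA2T2 knockout, where 14.4% of all genes fell and 14.4% rose. In the PRDM14-labelled group 3 then fell and 5 rose, so that more rose than fell, where 10.4% of all genes fell and 9.93% rose. Without wild-type replicate 3 or PRDM14-labelled replicate 2, 5 fell and 5 rose in that group. Of all genes 9.94% fell and 10.1% rose without wild-type replicate 3, and 12.8% and 11.6% without PRDM14-labelled replicate 2.

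Piwil2, Piwil4, Tdrd1, Syce1, Tex11, Tex19.1 and Tuba3a were the 7 members that fell in both comparisons. Rec8 and Tdrd7 were the 2 that rose in both. Ddx4, Mael, Mov10l1, Slc25a31, Stag3, Stra8, Sycp1 and Tuba3b were called lower in the CBFA2T2 knockout only, Dnd1 was called higher there only, and Kit, Smc1b and Sycp3 were called higher in the PRDM14-labelled group only. A call in one comparison and not in the other does not show that the knockouts differ, and that difference is tested further on. Of the 34, 13 were called in neither comparison. The comparisons share the wild-type libraries and are not independent of each other.

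**Figure D1:**
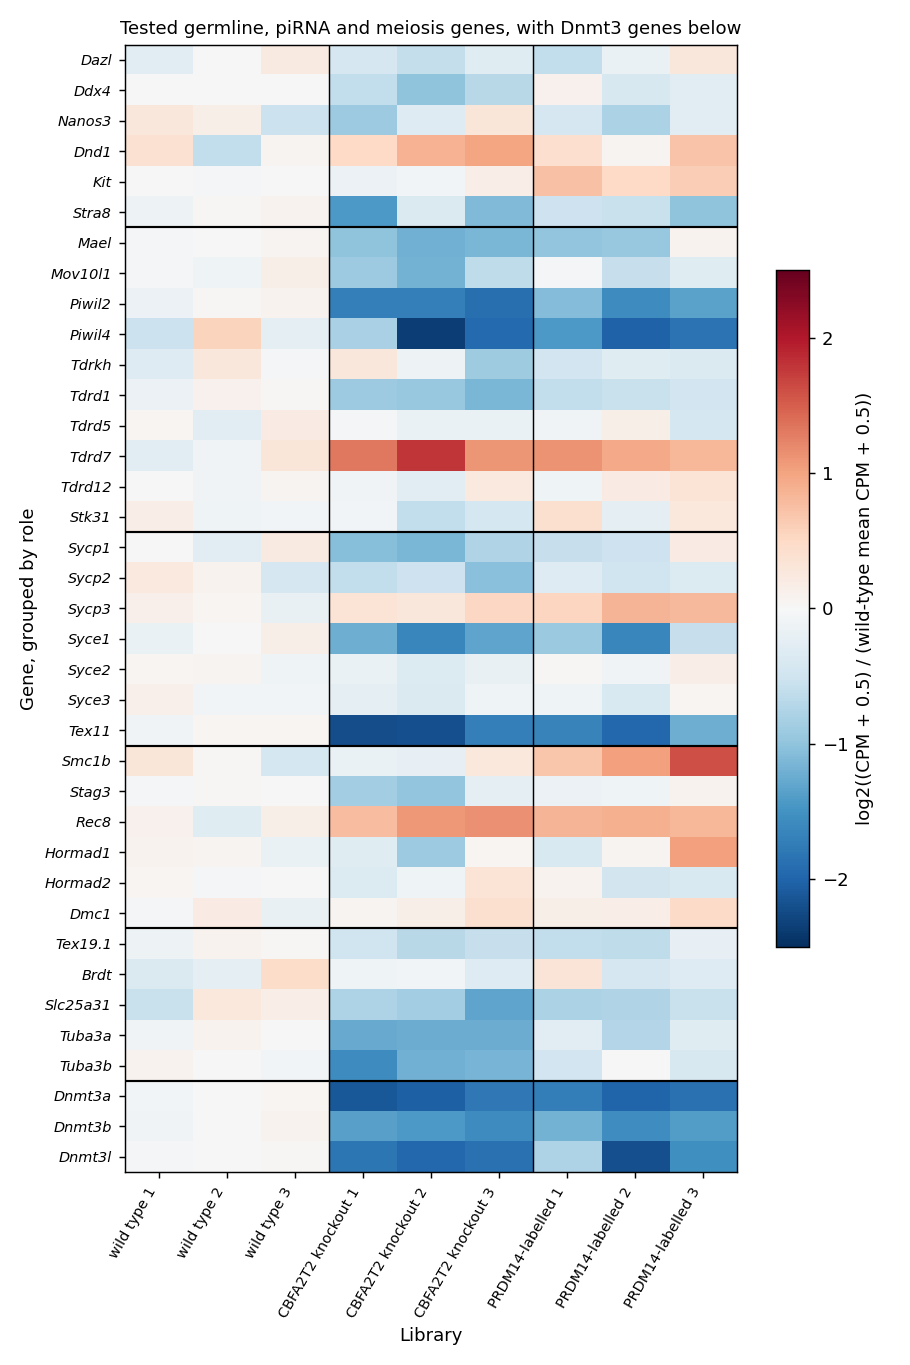
Log2 ratio of each library's CPM to the wild-type mean, after adding 0.5 CPM to both, for the 34 tested members in blocks by role (identity, piRNA, synaptonemal complex, cohesin and recombination, other) and for 3 Dnmt3 genes in the last block. Columns are the 9 libraries; blue is lower and red is higher than wild type, so the Dnmt3 block is blue in all 6 knockout libraries while the members are of both colours.

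Dnmt3a, Dnmt3b and Dnmt3l, the de novo methyltransferases and their cofactor, were lower in every knockout library than in every wild-type library. Dnmt3a was at 445, 475 and 487 CPM in wild type, 107, 114 and 136 CPM in the CBFA2T2 knockout and 142, 116 and 128 CPM in the PRDM14-labelled libraries. Dnmt3a fell in the CBFA2T2 knockout (log2 change -1.98 ± 0.10 SE, adjusted p = 2.78e-08) and in the PRDM14-labelled group (-1.87 ± 0.10, adjusted p = 1.02e-07). Dnmt3b was at 519, 558 and 586 CPM in wild type, 216, 205 and 187 CPM in the CBFA2T2 knockout and 245, 189.8 and 209.6 CPM in the PRDM14-labelled libraries, a fall in both comparisons (-1.45 ± 0.10, adjusted p = 2.9e-07, and -1.37 ± 0.10, adjusted p = 8.14e-07). Of the 50-base stretches of Dnmt3b transcripts, 9.81% also occur in the related gene Dnmt3c, so a part of its counts could be shared. Dnmt3l, which has no catalytic activity of its own, was at 291, 292 and 303 CPM in wild type, 84.1, 75.6 and 80.5 CPM in the CBFA2T2 knockout and 173, 63.8 and 102 CPM in the PRDM14-labelled libraries. It fell in both (-1.88 ± 0.32, adjusted p = 0.00325, and -1.38 ± 0.31, adjusted p = 0.0152), with PRDM14-labelled replicate 1 well above replicate 2, and lost the call there without PRDM14-labelled replicate 3 (-1.31, adjusted p = 0.0651). Its exons overlap those of Aire on the other strand by 67 bases. Aire was at 49.6, 54.9 and 49.99 CPM in wild type, 19.5, 19 and 25.8 CPM in the CBFA2T2 knockout and 48.5, 28.4 and 28.8 CPM in the PRDM14-labelled libraries, lower in the CBFA2T2 knockout (-1.27 ± 0.20, adjusted p = 0.000534) and without a call in the PRDM14-labelled group (-0.54 ± 0.19, adjusted p = 0.0559), where replicate 1 was again the highest. The part of such reads in the Dnmt3l counts was not tested.

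At the promoters, the members were CpG-rich. RefSeq promoter sequences of GRCm38.p6 (250 bases before to 50 after each start site) matched 35 of the 40 symbols, with 46 promoters, and did not include Dnd1, Piwil2, Spo11, Tdrd6 and Tex11. The median member promoter held 19 CpG dinucleotides in 300 bases, with an observed over expected ratio of 0.688, where the median of all 32851 promoters was 7 and 0.384. The letters GCGGGAA, the core bound by E2F6, were searched on both strands and found in promoters of 10 of the 35 members (28.6%) and of 5.29% of all symbols. The E-box CACGTG, which MGA and MAX bind and which reads the same on both strands, was found in 13 of the 35 (37.1%) and in 8.09% of all symbols. No match of one motif shared bases with a match of the other in the 46 promoters, and 6 members held both. Both motifs contain a CpG, and their shares in promoters of like CpG content were not counted. These are matches of letters, and no binding was measured.

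Promoters of 4 members are shown because they carry these letters while their genes moved in different ways. Ddx4 and Stag3 were called lower in the CBFA2T2 knockout, and Sycp3 and Smc1b higher in the PRDM14-labelled group. Sequences run 5′ to 3′ along the gene's strand, with GCGGGAA (or its reverse complement) and CACGTG in capitals. Ddx4 is at chr13:112652261-112652560 (minus strand), Stag3 at chr5:138280259-138280558 (plus), Sycp3 at chr10:88459337-88459636 (plus) and Smc1b at chr15:85131908-85132207 (minus).
Ddx4: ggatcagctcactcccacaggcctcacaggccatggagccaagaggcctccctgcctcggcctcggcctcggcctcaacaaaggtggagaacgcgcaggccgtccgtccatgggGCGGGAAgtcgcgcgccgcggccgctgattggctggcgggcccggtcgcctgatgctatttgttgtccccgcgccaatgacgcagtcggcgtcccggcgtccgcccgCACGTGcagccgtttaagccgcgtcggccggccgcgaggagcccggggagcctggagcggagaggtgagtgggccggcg
Stag3: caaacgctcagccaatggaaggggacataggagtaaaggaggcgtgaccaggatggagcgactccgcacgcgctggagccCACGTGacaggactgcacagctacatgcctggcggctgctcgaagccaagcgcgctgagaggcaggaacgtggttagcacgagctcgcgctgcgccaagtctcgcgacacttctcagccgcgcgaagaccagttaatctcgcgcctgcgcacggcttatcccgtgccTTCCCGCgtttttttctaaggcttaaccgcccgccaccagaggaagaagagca
Sycp3: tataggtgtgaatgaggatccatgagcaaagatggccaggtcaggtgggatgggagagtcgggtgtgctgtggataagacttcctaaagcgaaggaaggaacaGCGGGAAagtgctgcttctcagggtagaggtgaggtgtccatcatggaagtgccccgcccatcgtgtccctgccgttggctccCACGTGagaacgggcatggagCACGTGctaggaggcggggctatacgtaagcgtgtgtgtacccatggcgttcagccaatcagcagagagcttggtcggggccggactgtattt
Smc1b: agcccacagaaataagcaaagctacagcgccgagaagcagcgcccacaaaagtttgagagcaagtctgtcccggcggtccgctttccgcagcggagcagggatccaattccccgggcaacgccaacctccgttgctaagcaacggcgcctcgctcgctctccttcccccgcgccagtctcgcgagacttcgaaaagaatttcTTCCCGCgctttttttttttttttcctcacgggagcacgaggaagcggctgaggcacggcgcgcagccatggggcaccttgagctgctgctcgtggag

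Ddx4, Stag3 and Sycp3 hold both motifs and Smc1b holds GCGGGAA alone. Of the 10 members with GCGGGAA, 5 fell and 5 had no call in the CBFA2T2 knockout, and 1 fell, 2 rose and 7 had no call in the PRDM14-labelled group. Of the 13 with CACGTG, 7 fell, 5 had no call and 1 was not tested in the CBFA2T2 knockout. In the PRDM14-labelled group 1 of these fell, 1 rose, 10 had no call and 1 was not tested. Of the 34 tested members 44.1% fell and 8.82% rose in the CBFA2T2 knockout, and of all genes 19.6% and 18.9%. For the PRDM14-labelled group these shares were 20.6% and 14.7% of members and 15.3% and 14.6% of all genes. Whether motif and call go together was not tested. Kit, Piwil4, Rec8, Stra8, Syce1, Tdrd7 and Tex19.1 were called in at least one comparison and held neither motif in this window.

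Wild-type cells already held RNA of most members. In each wild-type library 33 or 34 of the 40 reached 1 CPM and 19 to 22 reached 10 CPM, against 30 to 32 and 13 to 17 in the knockout libraries. Per kilobase of annotated exon, Syce2 was the highest member in wild type at a mean of 63.9 CPM per kb, then Tex19.1 (24), Stag3 (17.8), Tdrd12 (15.9) and Ddx4 (14.8). For scale, Dnmt3b had a mean of 109 CPM per kb. The summed level of the 40 was 736, 747 and 743 CPM in wild type, 555, 524 and 635 CPM in the CBFA2T2 knockout, and 722, 687 and 819 CPM in the PRDM14-labelled group. The CBFA2T2 knockout sums lay below all the others, and the PRDM14-labelled sums spanned those of wild type. In bulk RNA, fewer cells that express a gene and less RNA per cell cannot be told apart.

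Among regulators of germ cell identity and RNA binding, 2 of 6 tested members fell and 1 rose in the CBFA2T2 knockout, and 1 rose and 0 fell in the PRDM14-labelled group (1 lower at an unadjusted p under 0.05, and 1 called by each of DESeq2 and limma-voom). The first are 33.3% lower and 16.7% higher, where 19.6% and 18.9% of all genes were. The second are 0% lower and 16.7% higher, where 15.3% and 14.6% of all genes were. Ddx4, the VASA helicase of germ granules (ENSMUSG00000021758, chromosome 13, 112598333 to 112652310 of GRCm38, as for all genes below), was at 44.7, 44.4 and 44.8 CPM in wild type, 28.9, 21.8 and 27.6 CPM in the CBFA2T2 knockout and 47.8, 33.5 and 36.8 CPM in the PRDM14-labelled libraries. Its CBFA2T2 knockout libraries lay below all 6 others (log2 change -0.78 ± 0.14 SE, adjusted p = 0.000656), whereas PRDM14-labelled replicate 1 was above wild type and the comparison was not called (-0.18 ± 0.14, adjusted p = 0.344). Stra8, which retinoic acid induces at meiotic entry, was at 9.88, 11 and 11.5 CPM in wild type, 3.67, 8.29 and 4.74 CPM in the CBFA2T2 knockout and 7.34, 7.17 and 5.13 CPM in the PRDM14-labelled libraries. Each knockout library was below each wild-type library, and the fall was called in the CBFA2T2 knockout (-0.94 ± 0.26, adjusted p = 0.0124) but not in the PRDM14-labelled group (-0.72 ± 0.26, adjusted p = 0.0522). The second was called under 5 alternatives, DESeq2 among them (adjusted p 0.0162 to 0.0411), and the CBFA2T2 call was lost without knockout replicate 1 (-0.69, adjusted p = 0.0558) or wild-type replicate 3 (-0.88, adjusted p = 0.0512).

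Kit, the receptor for stem cell factor on primordial germ cells (ENSMUSG00000005672, chromosome 5, 75574916 to 75656722), was at 71, 68.8 and 71.2 CPM in wild type, 63.3, 66.8 and 78.5 CPM in the CBFA2T2 knockout and 116, 99.7 and 107 CPM in the PRDM14-labelled libraries. The PRDM14-labelled group stood above the other 6, which overlapped. Kit rose there (log2 change 0.62 ± 0.09 SE, adjusted p = 0.00028) and not in the CBFA2T2 knockout (-0.02 ± 0.09, adjusted p = 0.895). Dnd1, an RNA-binding protein that protects germ cell mRNAs from microRNAs, was at 7.6, 3.6 and 6.01 CPM in wild type, 8.36, 10.8 and 11.8 CPM in the CBFA2T2 knockout and 7.87, 6.01 and 9.76 CPM in the PRDM14-labelled libraries. It was called higher in the CBFA2T2 knockout (0.82 ± 0.26, adjusted p = 0.0225), a call lost without knockout replicates 2 or 3 (adjusted p = 0.0634 and 0.0731) or wild-type replicates 2 or 3 (adjusted p = 0.0859 and 0.0584). Exons of Dnd1 overlap those of Wdr55 on the other strand by 140 bases, and Wdr55 fell in both comparisons (-0.48 and -0.50 on the log2 scale). Whether the counting used strand is not given in the sources used here.

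Dazl, an RNA-binding protein that licenses germ cells for gametogenesis, was at 9.42, 11.3 and 13.3 CPM in wild type, 8.36, 7.34 and 9.16 CPM in the CBFA2T2 knockout and 7.23, 10.1 and 14 CPM in the PRDM14-labelled libraries. The CBFA2T2 knockout values were the lower ones against wild type but missed the threshold (-0.46 ± 0.23, adjusted p = 0.127), and PRDM14-labelled replicate 3 was the highest of the 9. Nanos3, needed for survival of primordial germ cells, was at 2.57, 2.3 and 1.24 CPM in wild type, 0.848, 1.53 and 2.64 CPM in the CBFA2T2 knockout and 1.4, 0.972 and 1.63 CPM in the PRDM14-labelled libraries. Its groups overlapped and it was not called (adjusted p = 0.605 and 0.321). Nanos2, a male germ cell factor, had 1 count in wild-type replicate 3, 1 count in PRDM14-labelled replicate 1 and 0 in the other 7 libraries, and was not tested.

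The piRNA pathway had the most members and fell more than it rose in the CBFA2T2 knockout: of 10 tested, 5 fell, 1 rose and 4 had no call. In the PRDM14-labelled group 3 fell, 1 rose and 6 had no call. The falls were 50% and 30% of those tested, where 19.6% and 15.3% of all genes fell. The rises were 10% in each, where 18.9% and 14.6% of all genes rose. Piwil2, a PIWI protein that binds piRNAs (ENSMUSG00000033644, chromosome 14, 70372480 to 70429094), was at 40.2, 45.3 and 47.4 CPM in wild type, 13.2, 13.2 and 11.6 CPM in the CBFA2T2 knockout and 20.6, 14.6 and 17.3 CPM in the PRDM14-labelled libraries. Its groups did not overlap in any of the 3 comparisons. It was 3.48-fold lower in the CBFA2T2 knockout (log2 change -1.80 ± 0.14 SE, adjusted p = 9.05e-07) and 2.53-fold lower in the PRDM14-labelled group (-1.34 ± 0.13, adjusted p = 9.83e-06). Piwil4, the PIWI protein that directs DNA methylation of transposons in fetal male germ cells, was at 2.29, 5.4 and 2.9 CPM in wild type, 1.81, 0.288 and 0.543 CPM in the CBFA2T2 knockout and 0.991, 0.486 and 0.625 CPM in the PRDM14-labelled libraries. It fell in both (-1.97 ± 0.57, adjusted p = 0.0153, and -2.29 ± 0.58, adjusted p = 0.0101) at 6 to 54 counts a library. Wild-type replicate 2 was highest, and without it the adjusted p was 0.0776 and 0.0528. Without CBFA2T2 knockout replicate 1 the log2 change there was -3.09, adjusted p = 0.00151, and without replicates 2 or 3 it was not called (adjusted p = 0.0519 and 0.055).

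Tdrd1, a Tudor scaffold that binds PIWIL2, was at 6.05, 7.29 and 6.84 CPM in wild type, 3.33, 3.26 and 2.79 CPM in the CBFA2T2 knockout and 4.2, 4.43 and 4.69 CPM in the PRDM14-labelled libraries, and the 3 groups formed 3 separate steps. It fell in the CBFA2T2 knockout (log2 change -1.09 ± 0.20 SE, adjusted p = 0.000938) and in the PRDM14-labelled group (-0.59 ± 0.20, adjusted p = 0.0373). The second call was lost with no filter on low counts (adjusted p = 0.0804) and without any one of 5 libraries, wild-type replicates 2 and 3 and PRDM14-labelled replicates 1, 2 and 3 (adjusted p 0.0614 to 0.121). Mael, which acts in nuclear and cytoplasmic steps of piRNA silencing, was at 11.3, 11.6 and 12.3 CPM in wild type, 5.59, 4.84 and 5.04 CPM in the CBFA2T2 knockout and 5.71, 5.83 and 12.6 CPM in the PRDM14-labelled libraries. In the CBFA2T2 knockout Mael fell (-1.18 ± 0.27, adjusted p = 0.00359). PRDM14-labelled replicates 1 and 2 were near the CBFA2T2 knockout and replicate 3 near wild type, and Mael was not called there (-0.55 ± 0.26, adjusted p = 0.131) but was called without replicate 3 (-1.02, adjusted p = 0.0016). Mov10l1, the helicase that processes piRNA precursors, was at 13, 12.3 and 14.7 CPM in wild type, 6.89, 5.61 and 8.38 CPM in the CBFA2T2 knockout and 12.9, 8.81 and 10.6 CPM in the PRDM14-labelled libraries. The CBFA2T2 knockout was lower, a called fall (-0.95 ± 0.19, adjusted p = 0.00162), with no call in the PRDM14-labelled group (-0.31 ± 0.19, adjusted p = 0.236).

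Tdrd7, a Tudor protein of germ granules that is also needed in the lens (ENSMUSG00000035517, chromosome 4, 45965334 to 46034761), went the other way. It was at 2.11, 2.5 and 3.45 CPM in wild type, 7.4, 10.6 and 6.37 CPM in the CBFA2T2 knockout and 6.47, 5.65 and 5.19 CPM in the PRDM14-labelled libraries, with every knockout library above every wild-type library. It rose 3.03-fold in the CBFA2T2 knockout (log2 change 1.60 ± 0.26 SE, adjusted p = 0.000298) and 2.15-fold in the PRDM14-labelled group (1.10 ± 0.26, adjusted p = 0.00592). Tdrd12, a Tudor helicase of secondary piRNA production and the pathway's highest member per kilobase, was at 69.5, 64.8 and 72.9 CPM in wild type, 64.8, 56.9 and 81.7 CPM in the CBFA2T2 knockout and 64.5, 80.2 and 87.9 CPM in the PRDM14-labelled libraries, with overlapping groups and no call (-0.03 ± 0.14, adjusted p = 0.877, and 0.17 ± 0.14, adjusted p = 0.39). Stk31, a Tudor-domain kinase-like protein, was at 13.2, 10.8 and 11.1 CPM in wild type, 11.1, 7.48 and 8.54 CPM in the CBFA2T2 knockout and 15.6, 9.84 and 14.2 CPM in the PRDM14-labelled libraries and was not called. Tdrd5, a Tudor and LOTUS domain protein, was at 9.77, 7.7 and 10.9 CPM in wild type, 9.27, 8.34 and 8.38 CPM in the CBFA2T2 knockout and 8.86, 10.6 and 6.88 CPM in the PRDM14-labelled libraries. Tdrkh, a Tudor protein of mitochondria, was at 6.74, 10.5 and 8.36 CPM in wild type, 10.4, 7.77 and 4.35 CPM in the CBFA2T2 knockout and 5.94, 6.8 and 6.57 CPM in the PRDM14-labelled libraries. Neither was called, and the groups of both overlapped. Tdrkh exons overlap those of Oaz3 on the other strand, but Oaz3 had 10 counts in all 9 libraries together. Asz1, Tdrd6 and Tdrd9 were below the filter, with at most 4, 12 and 10 counts in any library.

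**Figure D2:**
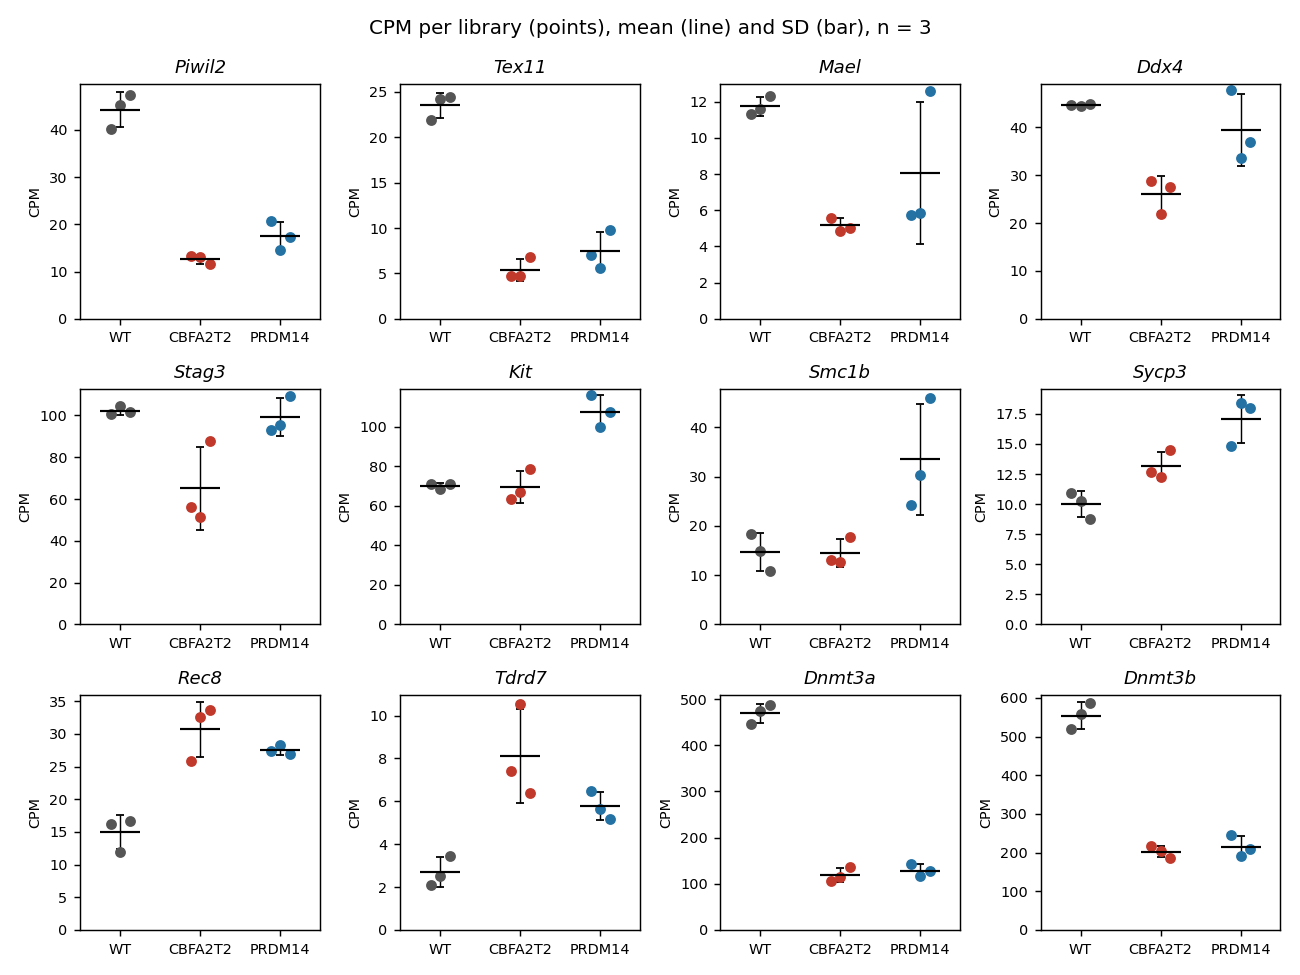
CPM of 10 members and 2 DNA methyltransferase genes in each library, on linear axes from 0; points are libraries, lines group means and bars SD (n = 3). Piwil2 and Tex11 are low in both knockout groups like Dnmt3a and Dnmt3b, Kit and Smc1b are high in the PRDM14-labelled group, and Rec8 and Tdrd7 are high in both.

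All 7 members grouped under the synaptonemal complex were tested. The group includes Tex11, a gene of crossover formation that fell in both comparisons, so its counts are not of the complex alone. In the CBFA2T2 knockout 3 of the 7 fell and 0 rose (1 higher at an unadjusted p under 0.05, called by DESeq2 and not by limma-voom). In the PRDM14-labelled group 2 fell and 1 rose. The first are 42.9% lower and 0% higher, where 19.6% and 18.9% of all genes were. The second are 28.6% lower and 14.3% higher, where 15.3% and 14.6% of all genes were. Tex11, an X-linked protein of meiotic crossover formation (ENSMUSG00000009670, chromosome X, 100838648 to 101059667), was at 21.9, 24.2 and 24.4 CPM in wild type, 4.69, 4.75 and 6.83 CPM in the CBFA2T2 knockout and 6.99, 5.65 and 9.82 CPM in the PRDM14-labelled libraries. No knockout library reached the wild-type values. It was 4.37-fold lower in the CBFA2T2 knockout (log2 change -2.13 ± 0.21 SE, adjusted p = 6.27e-06) and 3.14-fold lower in the PRDM14-labelled group (-1.65 ± 0.20, adjusted p = 5.69e-05). Syce1, a central element protein of the synaptonemal complex, was at 12.4, 14.3 and 15.6 CPM in wild type, 5.76, 4.22 and 5.36 CPM in the CBFA2T2 knockout and 7.23, 4.19 and 9.26 CPM in the PRDM14-labelled libraries. It fell in both (-1.47 ± 0.25, adjusted p = 0.000461, and -1.03 ± 0.24, adjusted p = 0.00598), with no overlap with wild type. Sycp1, the transverse filament that spans the complex, was at 6.63, 5.4 and 7.8 CPM in wild type, 2.88, 2.73 and 3.73 CPM in the CBFA2T2 knockout and 4.25, 4.5 and 7.69 CPM in the PRDM14-labelled libraries. It fell in the CBFA2T2 knockout (-1.10 ± 0.27, adjusted p = 0.00562), while PRDM14-labelled replicate 3 lay within the wild-type range and that comparison was not called (-0.28 ± 0.26, adjusted p = 0.451). Of the 50-base stretches of Sycp1, 5.47% also occur in other genes, Sycp1-ps1 among them.

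Sycp3, a lateral element protein (ENSMUSG00000020059, chromosome 10, 88459569 to 88473236), was at 10.9, 10.3 and 8.77 CPM in wild type, 12.7, 12.3 and 14.5 CPM in the CBFA2T2 knockout and 14.8, 18.4 and 18 CPM in the PRDM14-labelled libraries, in 3 separate steps from wild type up to the PRDM14-labelled group. It rose in the PRDM14-labelled group (0.77 ± 0.15, adjusted p = 0.00172). In the CBFA2T2 knockout it just missed the threshold (0.39 ± 0.15, adjusted p = 0.0532), and 4 alternatives called it, with adjusted p of 0.0413 to 0.0499. Sycp3 exons overlap those of Chpt1 on the other strand by 660 bases. Chpt1 was higher in the CBFA2T2 knockout (0.73 ± 0.18, adjusted p = 0.006) with no call in the PRDM14-labelled group (0.44 ± 0.18, adjusted p = 0.0868), and the part of such reads in the Sycp3 counts was not tested. Syce2, another central element protein, was at 129, 132 and 116 CPM in wild type, 112, 99.2 and 110.0 CPM in the CBFA2T2 knockout and 128, 118 and 141 CPM in the PRDM14-labelled libraries. Its CBFA2T2 knockout values lay below all others by a small margin and were not called (-0.23 ± 0.09, adjusted p = 0.0502), or were called with the compared groups alone (adjusted p = 0.0324). Sycp2, the lateral element partner of SYCP3, was at 2.06, 1.8 and 1.1 CPM in wild type, 0.904, 1.01 and 0.543 CPM in the CBFA2T2 knockout and 1.22, 1.03 and 1.19 CPM in the PRDM14-labelled libraries. Syce3, a further central element protein, was at 2.34, 2 and 2 CPM in wild type, 1.7, 1.53 and 1.94 CPM in the CBFA2T2 knockout and 1.92, 1.52 and 2.19 CPM in the PRDM14-labelled libraries. In both the CBFA2T2 knockout values were below wild type without a call.

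Of 6 tested meiotic cohesin, axis and recombination genes, 1 fell and 1 rose in the CBFA2T2 knockout. That is 16.7% each way, near the 19.6% and 18.9% of all genes. In the PRDM14-labelled group 2 rose and 0 fell (0 also at an unadjusted p under 0.05, and with DESeq2 and limma-voom). These are 33.3% higher and 0% lower, where 14.6% of all genes rose and 15.3% fell. Rec8, the meiotic kleisin subunit of cohesin (ENSMUSG00000002324, chromosome 14, 55618037 to 55625395), was at 16.3, 12 and 16.7 CPM in wild type, 25.9, 32.6 and 33.6 CPM in the CBFA2T2 knockout and 27.3, 28.3 and 26.9 CPM in the PRDM14-labelled libraries. All 6 knockout libraries were above wild type. It rose 2.03-fold in the CBFA2T2 knockout (log2 change 1.02 ± 0.14 SE, adjusted p = 9.43e-05) and 1.82-fold in the PRDM14-labelled group (0.86 ± 0.14, adjusted p = 0.000505). Stag3, another meiotic cohesin subunit, was at 101, 104 and 102 CPM in wild type, 56.1, 51.2 and 87.9 CPM in the CBFA2T2 knockout and 93, 95.4 and 109 CPM in the PRDM14-labelled libraries. Stag3 fell in the CBFA2T2 knockout (-0.66 ± 0.17, adjusted p = 0.0109), where replicate 3 was nearest to wild type, and the PRDM14-labelled group spanned the wild-type values (-0.04 ± 0.17, adjusted p = 0.873).

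Smc1b, the meiotic SMC1 subunit (ENSMUSG00000022432, chromosome 15, 85064691 to 85131957), was at 18.3, 15 and 10.8 CPM in wild type, 13, 12.7 and 17.8 CPM in the CBFA2T2 knockout and 24.2, 30.3 and 46 CPM in the PRDM14-labelled libraries. The 3 PRDM14-labelled values were above all others and spread widely. It rose there 2.27-fold (log2 change 1.18 ± 0.26 SE, adjusted p = 0.00659), while the CBFA2T2 knockout overlapped wild type (-0.03 ± 0.27, adjusted p = 0.936). By their calls against wild type these 3 cohesin subunits took 3 patterns. Between the knockouts none of the 3 was called in the edgeR fit (adjusted p = 0.64 for Rec8, 0.117 for Stag3 and 0.0627 for Smc1b). The promoters of Stag3 and Smc1b were printed because they hold GCGGGAA, and that of Rec8 holds neither motif. Hormad1, an axis protein, was at 13.9, 13.8 and 11.6 CPM in wild type, 10.6, 6.71 and 13.5 CPM in the CBFA2T2 knockout and 10.02, 13.8 and 27.1 CPM in the PRDM14-labelled libraries, with PRDM14-labelled replicate 3 the highest of the 9 libraries and no call. Of its 50-base stretches 22.9% also occur in other annotated genes, so its counts are uncertain. Hormad2, a second axis protein, was at 10.8, 10.1 and 10.4 CPM in wild type, 8.14, 9.64 and 13.3 CPM in the CBFA2T2 knockout and 11.1, 7.47 and 7.94 CPM in the PRDM14-labelled libraries. Dmc1, the meiotic recombinase, was at 10.9, 12.9 and 9.74 CPM in wild type, 11.7, 12.5 and 14.9 CPM in the CBFA2T2 knockout and 12.4, 12.6 and 15.7 CPM in the PRDM14-labelled libraries. Both had overlapping groups and no call in any comparison.

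Spo11, whose protein makes the DNA double-strand breaks of meiosis (ENSMUSG00000005883, chromosome 2, 172977700 to 172993576), was below the filter and had no count in wild type. Its counts were 0, 0 and 0 in wild type, 9, 21 and 4 in the CBFA2T2 knockout and 9, 6 and 4 in the PRDM14-labelled group. The knockout libraries were thus all above wild type, at a few counts each. The pooled counts were set against a floor of 3 counts over the wild-type group. They were 9.82-fold above it in the CBFA2T2 knockout (34 counts, 21 of them in replicate 2) and 5.56-fold in the PRDM14-labelled group (19 counts). The floor allows for counting error in wild type only. The knockout counts were taken as they stand, so these ratios are not lower bounds. With no filter on low counts its adjusted p was 0.00102 and 0.00663.

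Of 5 tested members among the other germ cell and testis genes, 4 fell in the CBFA2T2 knockout and 2 in the PRDM14-labelled group, while 0 rose in either (0 also at an unadjusted p under 0.05, and with DESeq2 and limma-voom). The falls were 80% and 40% of those tested, where 19.6% and 15.3% of all genes fell, and 18.9% and 14.6% of all genes rose. Tex19.1, a germ cell and placental factor that also limits transposons (ENSMUSG00000039329, chromosome 11, 121146143 to 121148319), was at 41.1, 47.8 and 46.1 CPM in wild type, 31.5, 27.8 and 30.1 CPM in the CBFA2T2 knockout and 29.2, 28.9 and 39 CPM in the PRDM14-labelled libraries. It fell in both (log2 change -0.59 ± 0.12 SE, adjusted p = 0.00212, and -0.47 ± 0.12, adjusted p = 0.0111), and without wild-type replicate 2 the second was -0.42, adjusted p = 0.0553. Tuba3a, a testis alpha-tubulin, was at 13.8, 15.6 and 14.8 CPM in wild type, 5.82, 5.9 and 5.9 CPM in the CBFA2T2 knockout and 11.9, 8.62 and 11.8 CPM in the PRDM14-labelled libraries, in 3 separate steps. It fell in the CBFA2T2 knockout (-1.32 ± 0.17, adjusted p = 4.43e-05) and at the threshold in the PRDM14-labelled group (-0.45 ± 0.16, adjusted p = 0.0497). That second call was lost under 4 alternatives of scaling, filter or fit (adjusted p 0.0528 to 0.0775) and without any 1 of 5 libraries, wild-type replicates 1, 2 and 3 and PRDM14-labelled replicates 2 and 3 (adjusted p 0.0559 to 0.179). Tuba3b, its near-copy, was at 1.43, 1.3 and 1.24 CPM in wild type, 0.113, 0.288 and 0.31 CPM in the CBFA2T2 knockout and 0.816, 1.34 and 0.875 CPM in the PRDM14-labelled libraries and fell in the CBFA2T2 knockout (-2.46 ± 0.50, adjusted p = 0.00163). Of the 50-base stretches, 33.6% of those of Tuba3a and 29.5% of those of Tuba3b also occur in other genes, so the counts of the pair cannot be assigned with certainty.

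Slc25a31, the germ cell ADP/ATP carrier, was at 1.26, 2.6 and 2.42 CPM in wild type, 1.02, 0.911 and 0.543 CPM in the CBFA2T2 knockout and 0.991, 1.03 and 1.25 CPM in the PRDM14-labelled libraries. Every knockout library was below wild type, and the fall was called in the CBFA2T2 knockout (-1.29 ± 0.41, adjusted p = 0.0231) but not in the PRDM14-labelled group (-0.91 ± 0.40, adjusted p = 0.101). At 7 to 35 counts a library the first call was lost without knockout replicates 2 or 3 or wild-type replicates 2 or 3 (adjusted p 0.055 to 0.0927), and the second comparison was called without wild-type replicate 1 (-1.19, adjusted p = 0.0448). Brdt, a testis bromodomain protein, was at 0.971, 1.1 and 2.07 CPM in wild type, 1.24, 1.29 and 1.01 CPM in the CBFA2T2 knockout and 1.86, 0.911 and 1 CPM in the PRDM14-labelled libraries, with overlapping groups and no call. Tex101, a germ cell surface protein, had 0 to 9 counts and was not tested.

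**Figure D3:**
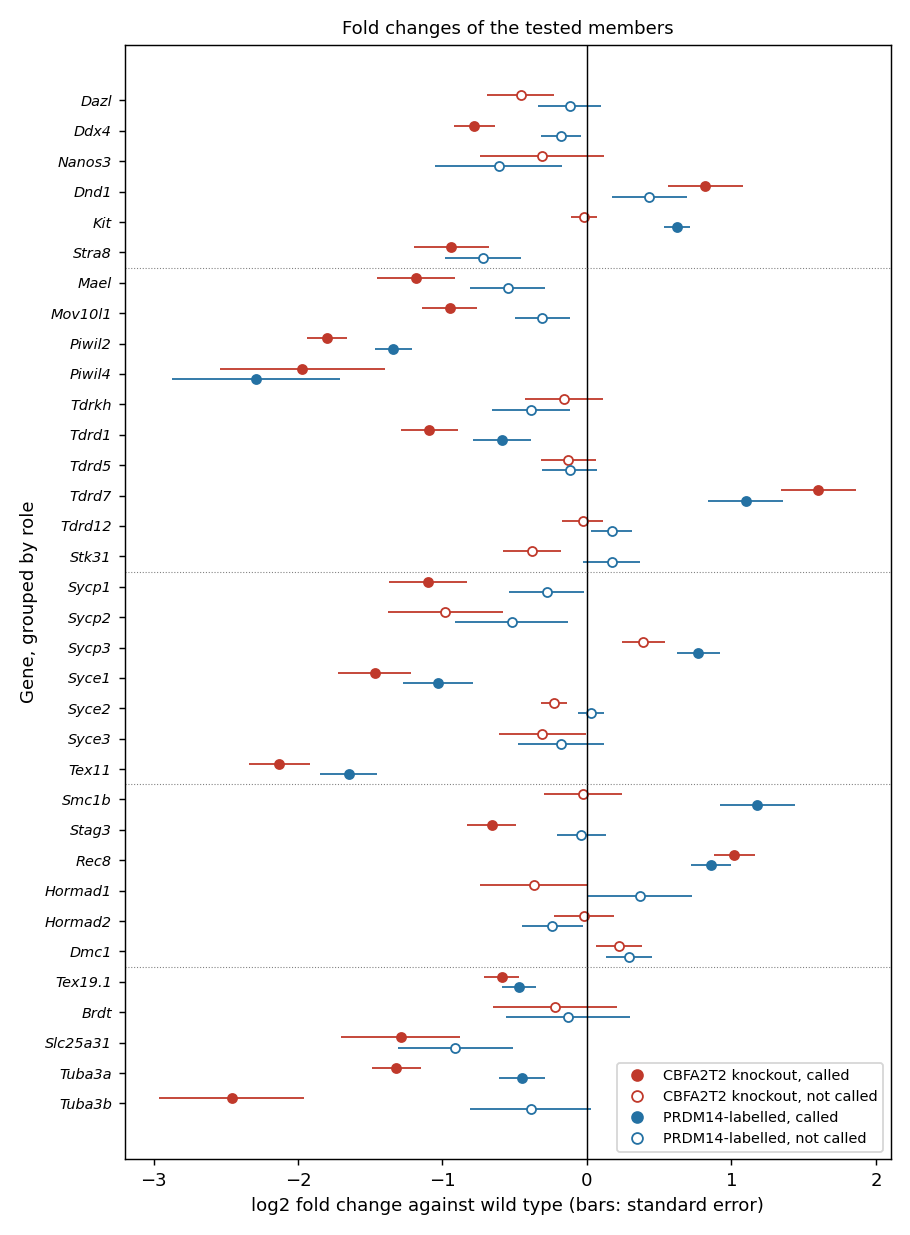
Log2 fold change against wild type with its standard error for the 34 tested members, grouped by role; red is the CBFA2T2 knockout, blue the PRDM14-labelled group, and filled points passed an adjusted p of 0.05. Of the 34, 29 have a value below 0 in the CBFA2T2 knockout and 23 in the PRDM14-labelled group, and both sets of values use the same wild-type libraries. How many of all genes lay below 0 was not counted.

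Set against each other, the knockouts differed in few members by the test. Of the 34 members 2, Kit and Tuba3a, were called lower in the CBFA2T2 knockout than in the PRDM14-labelled group and 0 were called higher. That is 5.88% and 0%, where 0.514% of all genes were called lower and 0.339% higher. At an unadjusted p under 0.05, 15 members were lower and 0 higher. The share of all genes at that threshold was not counted. With DESeq2 and limma-voom 0 were higher too. The difference was -0.64 ± 0.09, adjusted p = 0.00754, for Kit and -0.88 ± 0.17, adjusted p = 0.0318, for Tuba3a. Fitted on these groups alone, 0 members were called, where 0.0617% of all genes were called lower. The count was 0 without CBFA2T2 knockout replicate 2, 1 without its replicate 1 or PRDM14-labelled replicate 3, and 4 without PRDM14-labelled replicate 2. The share of all genes called lower was 0.0891% in the first of these fits and 1.61% in the last. DESeq2 called 5, adding Ddx4, Smc1b and Stag3, where it called 2.06% of all genes lower. Ddx4 (-0.60 ± 0.14, adjusted p = 0.0611) and Smc1b (-1.22 ± 0.26, adjusted p = 0.0627) were near the threshold in the edgeR fit. Over all 34 tested members, called or not, the log2 difference was below 0 for 27 and above 0 for 7, with a median of -0.38. The median of all genes was -0.0, and how many of them lay below 0 was not counted.

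The genes around the members were counted from lists of the same pathways, to be read against the shares of all genes given above (19.6% lower and 18.9% higher in the CBFA2T2 knockout, 15.3% and 14.6% in the PRDM14-labelled group). Of 13 tested further piRNA pathway genes, 4 fell in the CBFA2T2 knockout, and 4 fell and 2 rose in the PRDM14-labelled group. Wdr77 (-0.64 and -0.51, log2 fold change in the CBFA2T2 knockout and then the PRDM14-labelled group, here and below) and Prmt5 (-0.62 and -0.44), which together methylate PIWI proteins among many others, fell in both. Gtsf1l (-1.02 and -0.67) and Pnldc1 (-0.76 and -0.48), the piRNA trimmer, also fell in both. Of 24 further meiosis genes, 7 fell and 2 rose in the CBFA2T2 knockout, and 5 fell and 1 rose in the PRDM14-labelled group. The falls were 29.2% and 20.8% of those tested, and in the PRDM14-labelled group 12 values lay above 0 and 12 below, with a median of 0.02, that of all genes. Ccnb1ip1 (-1.33 and -0.61), Mns1 (-0.71 and -0.63) and Brca2 (-0.59 and -0.42) fell, and Cntd1 (0.96 and 1.11), a crossover factor, rose in both. Of 18 further germ cell genes, 6 fell and 2 rose, and then 3 fell and 1 rose. Tex14 (-1.19 and -0.61) and Gfra1 (-3.00 and -2.94) fell in both, Rpl10l (-1.49 and -0.77) fell in the CBFA2T2 knockout, and Id4 (2.42 and 1.93) rose in both.

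Of 10 early primordial germ cell markers, 6 rose and 2 fell in the CBFA2T2 knockout, and 5 rose and 3 fell in the PRDM14-labelled group. Alpl (0.81 and 0.96), Dppa3 (0.90 and 1.69) and Tfap2c (0.87 and 0.81) rose, and Lin28a fell (-0.87 and -0.97). Several of these are also genes of embryonic stem cells. Whether this list differs from the members was not tested.

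Genes that add and genes that remove DNA methylation were counted in one list. Of its 10 genes, 6 fell and 1 rose in the CBFA2T2 knockout, and 6 fell in the PRDM14-labelled group. Tet1 (-1.28 and -0.76) and Tet2 (-1.31 and -0.99), which oxidise methylated cytosine in demethylation, fell in both, as the methyltransferase genes Dnmt3a and Dnmt3b did. Of 20 repressors of germline genes that do not methylate DNA, 13 fell and 2 rose, and then 11 fell and 1 rose. Trim28 (-0.96 and -0.81), L3mbtl2 (-0.79 and -0.77), Ehmt2 (-0.60 and -0.65) and Rnf2 (-0.50 and -0.41) fell in both. E2f6, Max and Mga are named here for the motifs, after their values were seen. E2f6 was -0.26 (adjusted p = 0.0949) and -0.33 (adjusted p = 0.0448). Max was -0.58 (adjusted p = 0.000528) and -0.54 (adjusted p = 0.00121), and Mga was -0.34 (adjusted p = 0.00952) and -0.11 (adjusted p = 0.396).

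**Figure D4:**
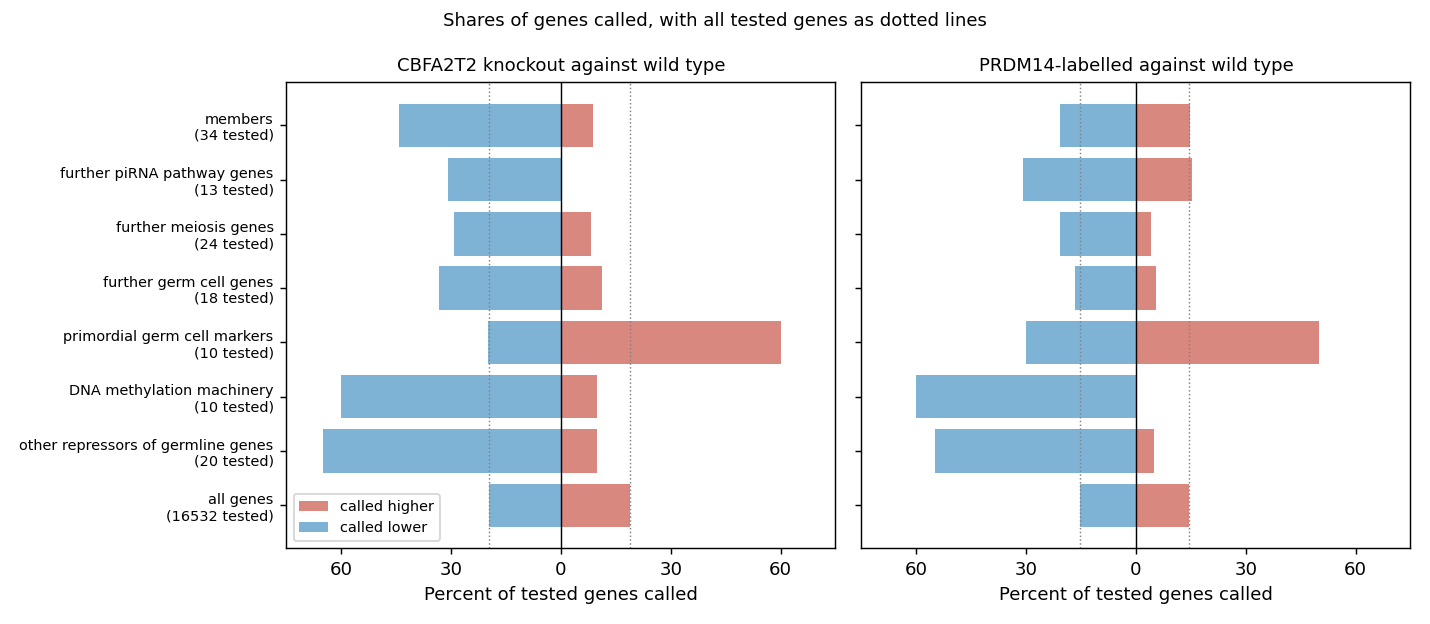
Percent of tested genes called higher (right, red) and lower (left, blue) against wild type in the members, in each further list and in all 16532 genes, whose shares are the dotted lines. In the CBFA2T2 knockout 44.1% of members were called lower against 19.6% of all genes, and in the PRDM14-labelled group 20.6% against 15.3%.

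Markers of other cells moved in the same libraries. The summed level of 20 feeder fibroblast markers was 1743 to 1829 CPM in wild type, 2116 to 3686 CPM in the CBFA2T2 knockout and 2061 to 3693 CPM in the PRDM14-labelled group, replicate 2 being highest in each knockout group. Of the 19 tested, 6 rose and 13 had no call in the CBFA2T2 knockout, and 5 rose and 14 had no call in the PRDM14-labelled group. The rises were 31.6% and 26.3%, where 18.9% and 14.6% of all genes rose and 19.6% and 15.3% fell. Tagln, Lox, Acta2 and Pdgfrb were among those that rose in both. Fn1 (mean 1006 CPM in wild type, 935 and 1124 CPM in the knockout groups), Col3a1, Vim and Dcn were called in neither. Lum had at most 5 counts in any library. Summed over 8 embryonic stem cell markers, the level was 4229 to 4430 CPM in wild type, 2108 to 2562 CPM in the CBFA2T2 knockout and 2830 to 3272 CPM in the PRDM14-labelled group. Of the 8, 7 fell and 1 rose in the CBFA2T2 knockout, and 6 fell and 1 rose in the PRDM14-labelled group. The part of either list in the members' changes was not tested. Without replicate 2 of the CBFA2T2 knockout 13 members fell and 2 rose, and without replicate 2 of the PRDM14-labelled group 5 fell and 5 rose. These fits do not test the part of feeder RNA, since the knockout libraries left in them still had feeder sums above wild type. The sums of replicates 1 and 3 were 2395 and 2116 CPM in the CBFA2T2 knockout and 2061 and 2551 CPM in the PRDM14-labelled group. With a library fewer, smaller shares of all genes were also called lower and higher. Of 7 gonadal soma markers, which summed to 49.8 to 73.0 CPM over the 9 libraries, 5 were tested. Of these 2 rose and 1 fell in the CBFA2T2 knockout and 1 rose and 1 fell in the PRDM14-labelled group, and the defining genes Nr5a1 and Foxl2 had at most 4 and 10 counts in any library.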

How the data were processed

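The deposited files hold raw counts of reads per Ensembl gene, 1 file per library, with 33233 genes each. The submitters' processing notes name Bowtie, with no version, and the mm9 build. Their coordinates match GRCm38, since 32860 gene IDs were found in GENCODE M21, all on the same chromosome and 25661 with an identical span. How reads were counted, with which annotation release and whether by strand, is not given in the sources used here. Gene symbols turned into dates were restored for 27 rows.

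Genes were kept with filterByExpr (16532 genes) and scaled by TMM (factors 0.9619 to 1.0371). One edgeR 4.0.16 quasi-likelihood fit (R 4.3.3, robust) over all 9 libraries gave the 3 comparisons, with Benjamini-Hochberg adjustment over all genes tested and calls at an adjusted p under 0.05. The standard error is the log2 fold change divided by the square root of F. CPM used the scaled library size. The fit was tested on simulated data. Alternatives were DESeq2 size factors, other filters on low counts, DESeq2 1.42.0, limma-voom (limma 3.58.1), the compared groups alone, a replicate block and each library left out in turn. Shared stretches of 50 bases were counted over GENCODE M21 transcripts. The floor used for Spo11 covers counting error of the wild-type group only.

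The members and all further lists were chosen with earlier results of these data known. Every member is named, with values per library where a library reached 1 CPM, and up to 4 called genes with the lowest p are named per further list. Beside these, E2f6, Max and Mga are named for the motifs, and some cell markers that had no call or few counts. Replicate numbers were taken from the labels, which do not say that they mark a shared culture, clone or day.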

Additional observations from a re-analysis of the deposited data

How the results depend on the processing

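Against wild type, the members called stayed within 3 to 4 higher and 14 to 16 lower in the CBFA2T2 knockout, and within 5 to 6 higher and 6 to 8 lower in the PRDM14-labelled group, under the alternatives of scaling, filter, tool and fit. With 1 library left out the members called ran from 2 to 3 higher and 13 to 15 lower in the CBFA2T2 knockout. In the PRDM14-labelled group they stayed at 5 higher and ran from 3 to 7 lower, where 3 was the count without wild-type replicate 2, the shallowest library. In these fits 14.4% to 16.9% of all genes were higher and 13.8% to 17.4% lower in the CBFA2T2 knockout. For the PRDM14-labelled group these shares were 9.93% to 14.5% and 9.94% to 14.9%. Between the knockouts, 2 members were lower in the CBFA2T2 knockout, against 5 with DESeq2's Wald test, 0 with the compared groups only and 4 with the replicate block. The shares of all genes called lower were 0.514%, 2.06%, 0.0617% and 1.28% in that order. With 1 library left out that count ran from 0 to 4. The causes of these moves were not tested. Values of single genes were followed for the tested members and the 3 Dnmt3 genes together, over the 3 comparisons. Of 1439 such values under the alternatives, 1379 kept their side of the threshold, 38 lost a call and 22 gained one. With a call in the main fit or the alternative, 0 changed direction. A change of direction with no call in either fit was not counted apart and is among the 1379. Of 38 calls in the main fit, those of the Dnmt3 genes included, 27 were lost under none of the alternatives.

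The replicate numbers were not taken to pair the libraries, since the labels give them no meaning and not every same-numbered pair correlated at over 0.1. Of 9 such pairs, whose deviations correlated at -0.0082 to 0.296, 3 were over 0.1. In 6 of 9 libraries the best correlation in both other groups was with the same number, a hint of pairing from the data and not from the design. With the replicate block 3 members rose and 15 fell in the CBFA2T2 knockout, where 19.5% of all genes rose and 20.2% fell. In the PRDM14-labelled group 5 rose and 7 fell, where 15.2% of all genes rose and 15.8% fell. Genes with few counts gave wide standard errors: 0.57 for Piwil4 and 0.50 for Tuba3b in the CBFA2T2 knockout, against 0.14 for Piwil2. The 6 untested members were too low for a test after the filter on low counts.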
